A study of Rattus norvegicus with 6 samples.

Results

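Collagens, the enzymes that fold, trim and cross-link them, and the proteins of elastic fibres were followed in the hearts of a pair of related rat strains. The set was listed by gene name as 45 genes. Of these, 43 were measured by at least 1 probe set annotated to that gene alone, out of 14217 genes measured in all. The 2 without such a probe set were Pcolce2 and Adamts2. Where a gene had several probe sets, the gene was represented by the one that was brightest on average.

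Dahl S is the Dahl salt-sensitive rat, an inbred strain used as a model of salt-induced hypertension. S.LEW(10)x12x2x3x5 is a congenic strain, Dahl S in background with a segment of chromosome 10 of the Lewis (LEW) rat. The sources used here do not give the extent of that segment. All rats were males of 1 birth date, were weaned at 30 days and ate chow with 0.3% salt, a low-salt diet, until their hearts were taken when they were 53 days old. Cages held a rat of each strain, and no group had a high-salt challenge. Whole-heart RNA of 2 rats was pooled for each Affymetrix rat expression array, with 3 arrays and 6 animals per strain. A difference is the congenic mean minus the Dahl S mean of the deposited log2 values, and array 1, 2 or 3 is the replicate number of the labels.

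Collagens are built from 3 chains wound into a helix. Type I and type III collagen form the fibrils that give the heart wall its tensile strength, with type V inside them, fibril-associated collagens on their surface, and type IV as the sheet of basement membranes around muscle cells and capillaries. New chains are hydroxylated on proline and lysine and folded in the endoplasmic reticulum, trimmed of their propeptides after secretion, and cross-linked by lysyl oxidases. Elastic fibres have an elastin core laid on fibrillin microfibrils. In the heart, fibroblasts are known as the main source of fibrillar collagen.

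The arrays were alike in most respects. Over 31042 probe sets, arrays correlated with each other at 0.993 to 0.998 (Pearson), and the 3′ minus 5′ log2 signal of the beta-actin control probe sets, a measure of RNA integrity, ran from 1.00 to 1.07. A pair of arrays stood apart. On Dahl S array 3 and congenic array 2 the spiked hybridization controls had a mean log2 level of 11.54 and 11.55, against 10.67 to 10.83 on the other 4 arrays. These are called the high-control pair and the 4 low-control arrays, and values from each are given for a number of genes. Of the tested probe sets, limma called 11 (0.0354%) at an adjusted p under 0.05. Cardiomyocyte markers were bright in every array, with 0 of 9 measured genes below the median probe set. Each array holds a separate pool of animals, so that p-values rest on the spread between 3 pools a strain. In limma the variance of each probe set is moderated, that is, drawn toward a value shared by all probe sets. The standard error (SE) and p therefore do not follow from the SDs of a gene alone.

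Of the 43 collagen and fibre genes 0 passed limma's adjusted p (0.721 to 1.00), and most had small differences above 0. At an unadjusted p under 0.05, 12 of 43 (27.9%) were higher and 0 were lower, against 3.47% of all genes higher and 3.55% lower. They were the fibrillar collagen genes Col1a1, Col1a2, Col5a1 and Col5a3, the fibril-associated Col12a1 and Col14a1, the basement membrane pair Col4a1 and Col4a2, the propeptide-trimming enhancer Pcolce, the cross-linking enzyme Loxl1, and Eln and Mfap4 of elastic fibres. Of the 43 genes, 40 had a difference above 0, as did 46.7% of all genes, and the median was 0.15 against -0.01 over all genes. In 19 of the 43 all congenic arrays were above all Dahl S arrays, which held for 5.89% of all genes. The opposite order held for 1 of the 43, P4ha2, and for 8.75% of all genes. Within the 4 low-control arrays the count of 12 was 10, with 2.91% of all genes higher. It was 7 without Dahl S array 1 (4.58% of all genes) and 18 without Dahl S array 3 (3.88%). Without congenic array 2 it was 5 (2.41%) and without congenic array 3 it was 6 (2.62%). The genes were chosen with results from these arrays known, and their counts are descriptions.

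**Figure D1:**
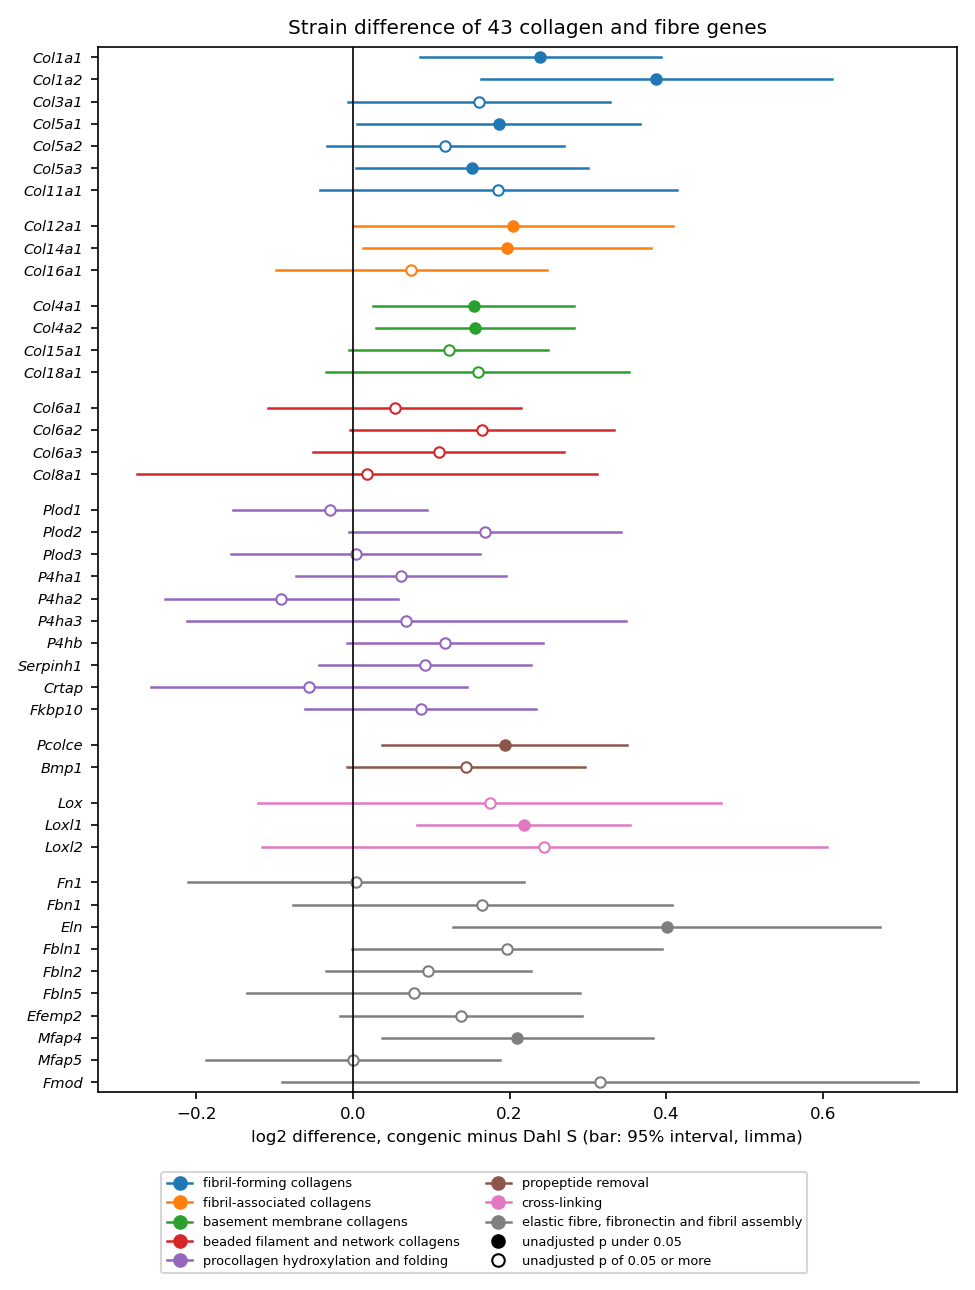
The log2 difference (congenic minus Dahl S, horizontal axis) of each of the 43 genes is plotted by role, with bars for the 95% interval from limma and filled points for an unadjusted p under 0.05. All 18 collagen chains lie to the right of 0. The hydroxylation and folding genes run from -0.09 to 0.17, with 7 of 10 above 0 and 3 below.

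Brightness bears on how these numbers read, because the strain differences of all genes drifted with it. With all genes ranked by mean level and cut into 4 equal bands, 62.9% of the dimmest band had a difference above 0, and 36.3% of the brightest band. The collagen and fibre genes were mostly bright. Of the 43, 29 lay in the brightest band, and 28 of these 29 had a difference above 0. Of these 29, 11 (37.9%) were higher at an unadjusted p under 0.05, against 2.00% of all genes of that band. The median of the 29 was 0.15 and that of the band was -0.02.

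**Figure D2:**
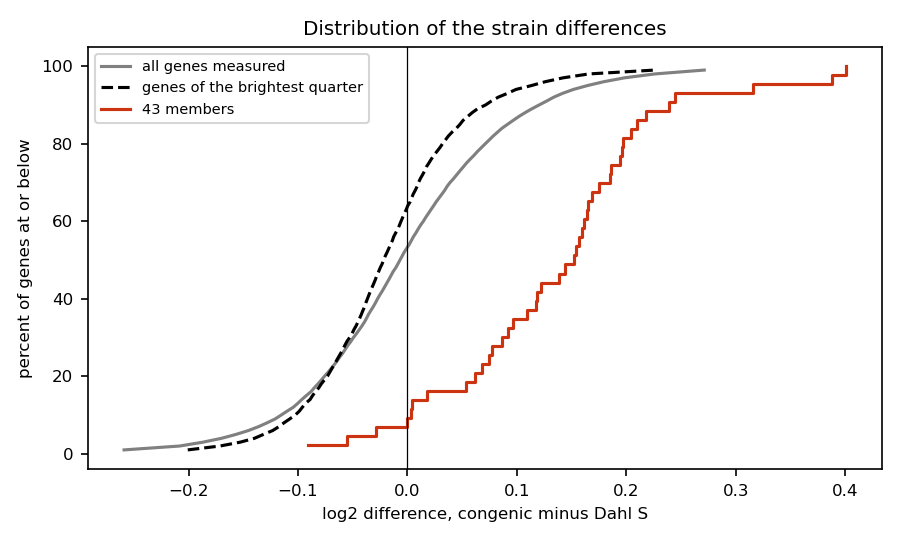
The cumulative percentage of genes (vertical axis) at or below each log2 difference (horizontal axis) is drawn for all genes measured, for genes of the brightest of 4 brightness bands and for the 43 collagen and fibre genes. The curve of the 43 lies to the right of both others, with its median at 0.15 against -0.01 for all genes and -0.02 for the brightest band.

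Type I collagen, the most abundant fibrillar collagen of the heart, showed the clearest differences of the collagen chains. Col1a2, which encodes its alpha-2 chain, had log2 values of 12.47, 12.69 and 12.78 on the Dahl S arrays and 12.91, 13.14 and 13.05 on the congenic arrays. The strains did not overlap, and Dahl S array 1 was the lowest. The means were 12.65 ± 0.16 and 13.03 ± 0.12 (SD, n = 3 each), a difference of 0.39 (SE 0.10, 1.31-fold) with an unadjusted p of 0.00422 and an adjusted p of 0.721 in limma. Its other probe set gave 0.25. Col1a1, the alpha-1 chain, read 13.22, 13.20 and 13.25 on the Dahl S arrays against 13.39, 13.58 and 13.42 on the congenic arrays. The Dahl S values lay close together, and congenic array 2 was the highest. The difference was 0.24 (SE 0.07, 1.18-fold, limma adjusted p = 0.729), and 0.32 on its other probe set. Between the high-control pair it was 0.33, and within the other 4 it was 0.19. For Col1a2 these values were 0.36 and 0.40.

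Shown here is the RefSeq promoter window of Col1a2, from 250 bases before to 50 bases after the annotated start, because this gene had the largest difference of all collagen chains. It lies at chr4:33518307-33518606 on the plus strand of GRCr8. Capitals mark the letters of a CCAAT box read on the other strand as ATTGG, and of a TATA box, TATAAA. They begin at -221 and -170 from the annotated start, and whether either works as a promoter element was not tested.
Col1a2: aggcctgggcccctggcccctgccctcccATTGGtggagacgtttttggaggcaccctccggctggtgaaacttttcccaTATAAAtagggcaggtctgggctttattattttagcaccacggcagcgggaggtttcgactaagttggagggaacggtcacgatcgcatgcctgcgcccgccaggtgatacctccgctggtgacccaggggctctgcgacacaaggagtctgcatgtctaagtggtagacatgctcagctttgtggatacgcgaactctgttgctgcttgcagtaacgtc
On either strand, TATAAA occurred in 14.2% of the 33469 windows of the table and CCAAT in 37.5%. Among the 30 measured collagen and fibre genes with a window, 2 held TATAAA, Col1a2 and Crtap, and 10 held CCAAT.

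The other fibril-forming chains differed in the same direction by less. Col3a1, the single chain of type III collagen, read 13.72, 13.74 and 13.85 in Dahl S against 13.84, 14.05 and 13.91 in congenic hearts. The groups overlapped at Dahl S array 3 and congenic array 1, and the difference of 0.16 (SE 0.07) had an unadjusted p of 0.0571. Type V collagen, which sits inside type I fibrils and limits their diameter, was measured by 3 chains. Col5a1 gave 10.32, 10.53 and 10.51 on the Dahl S arrays and 10.56, 10.71 and 10.65 on the congenic arrays. The groups did not overlap, but Dahl S array 2 and congenic array 1 were close. The difference was 0.19 (SE 0.08, limma adjusted p = 0.744), and 0.21 on its other probe set. Without Dahl S array 1 it was 0.12. Col5a3 gave 10.03, 10.01 and 9.93 against 10.08, 10.23 and 10.11, a difference of 0.15 (SE 0.06, limma adjusted p = 0.744). It was 0.08 within the 4 low-control arrays and 0.30 between the high-control pair. Col5a2 differed by 0.12 (SE 0.07) and Col11a1, a minor fibrillar chain known best from cartilage, by 0.19 (SE 0.10) on a dim probe set with a mean of 5.14. Its brighter reading on congenic array 2, 5.45, stood above the 4.99 to 5.13 of the other 5 arrays, and its 2 dimmer probe sets differed by -0.03 and 0.03. Its difference was 0.10 within the 4 low-control arrays and 0.36 between the high-control pair.

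Fibril-associated collagens bind the surface of collagen fibrils. Col14a1 read 10.84, 10.95 and 11.06 in Dahl S against 11.04, 11.24 and 11.15 in congenic hearts. Dahl S array 3 lay just above congenic array 1, and the difference was 0.20 (SE 0.08, unadjusted p = 0.0389, adjusted p = 0.736 in limma). Col12a1 read 6.90, 7.17 and 7.05 against 7.20, 7.17 and 7.37, so that Dahl S array 2 and congenic array 2 met. Its difference of 0.20 (SE 0.09) had an unadjusted p of 0.0497, and its 2 dimmer probe sets gave 0.11 and 0.01. It was 0.25 within the 4 low-control arrays and 0.12 between the high-control pair. Col16a1 differed by 0.07 (SE 0.07), with -0.02 within the 4 low-control arrays and 0.26 between the high-control pair.

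Basement membrane collagens differed by nearly equal amounts. Col4a1 and Col4a2 encode the alpha-1 and alpha-2 chains of the common type IV heterotrimer. Col4a1 read 12.29, 12.33 and 12.32 on the Dahl S arrays against 12.52, 12.46 and 12.41 on the congenic arrays. Col4a2 read 12.16, 12.24 and 12.21 against 12.37, 12.32 and 12.38. In both genes the groups were separate, and unlike for type I collagen, congenic array 2 was not the highest. The difference of Col4a1 was 0.15 (SE 0.06, 95% interval 0.03 to 0.28) and that of Col4a2 was 0.16 (SE 0.05, 95% interval 0.03 to 0.28), with a limma adjusted p of 0.736 for both. Without congenic array 2 they were 0.16 and 0.18, and the other probe set of Col4a1 gave 0.10. Col15a1 and Col18a1 encode the multiplexins, collagens of the basement membrane zone, and Col18a1 is the source of endostatin. They differed by 0.12 (SE 0.05, unadjusted p = 0.0571) and 0.16 (SE 0.08, unadjusted p = 0.0935). The other Col18a1 probe set, equally bright, gave 0.25 with an unadjusted p of 0.0321. On the first probe set the difference was 0.19 within the 4 low-control arrays and 0.090 between the high-control pair.

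The type IV pair is known to lie head to head on opposite strands, and the windows are shown because both genes differed alike. The annotated starts were 77 bases apart, and the windows shared 176 bases. That of Col4a1 lies at chr16:84885347-84885646 on the plus strand of GRCr8 and that of Col4a2 at chr16:84885471-84885770 on the minus strand. Each is written 5′ to 3′ on its gene's strand. Capitals mark CCAAT and GC boxes (GGGCGG) on either strand.
Col4a1: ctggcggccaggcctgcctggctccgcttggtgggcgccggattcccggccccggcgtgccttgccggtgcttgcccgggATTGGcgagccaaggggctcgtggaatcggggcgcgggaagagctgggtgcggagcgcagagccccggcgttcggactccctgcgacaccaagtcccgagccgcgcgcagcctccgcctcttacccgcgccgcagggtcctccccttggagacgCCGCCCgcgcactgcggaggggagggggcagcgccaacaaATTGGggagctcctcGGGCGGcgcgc
Col4a2: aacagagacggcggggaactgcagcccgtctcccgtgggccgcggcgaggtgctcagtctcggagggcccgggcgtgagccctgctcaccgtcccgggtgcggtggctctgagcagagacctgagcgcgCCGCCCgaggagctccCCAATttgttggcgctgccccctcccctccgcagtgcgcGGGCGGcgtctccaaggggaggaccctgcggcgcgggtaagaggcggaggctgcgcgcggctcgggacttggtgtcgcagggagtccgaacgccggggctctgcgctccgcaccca
Both GC boxes of each window, and 1 CCAAT box, lie in the shared bases. In the Col4a1 window that CCAAT box and 1 of the GC boxes begin after the annotated start, at positions 25 and 40. GGGCGG occurred in 22 of the 30 windows of measured collagen and fibre genes (73.3%) and in 33.1% of all windows, a description with no test. The share over all windows, here and for the other sequences, was not limited to genes measured on these arrays. The sets compared are therefore unlike, and an excess particular to collagen genes cannot be read from them.

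Beaded-filament and network collagens had the lowest median difference of the 4 groups of collagen chains, 0.08, and 0 of 4 had an unadjusted p under 0.05. Type VI collagen forms beaded filaments beside the basement membrane. Of its chains, Col6a2 differed by 0.16 (SE 0.07, unadjusted p = 0.0543), Col6a3 by 0.11 (SE 0.07) and Col6a1 by 0.05 (SE 0.07). A dimmer Col6a3 probe set gave 0.28 and a dimmer Col6a2 probe set 0.00. Col8a1, a network-forming chain of vessel walls, read 8.44, 8.15 and 8.07 in Dahl S against 8.04, 8.23 and 8.44 in congenic hearts. The groups overlapped fully, and the difference was 0.02 (95% interval -0.28 to 0.31).

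Enzymes and chaperones that act on procollagen inside the cell showed little. Of the 10 genes 7 had a difference above 0 and 3 below, 0 of 10 had an unadjusted p under 0.05, and the median was 0.06. Plod2, the lysyl hydroxylase of the telopeptides where cross-links form, read 8.99, 9.05 and 9.17 against 9.14, 9.24 and 9.33. That was the largest difference of the group (0.17, SE 0.07, unadjusted p = 0.0550), and the groups overlapped at Dahl S array 3 and congenic array 1. It was 0.22 within the 4 low-control arrays and 0.071 between the high-control pair. The other lysyl hydroxylases, Plod1 and Plod3, differed by -0.03 (SE 0.05) and 0.00 (SE 0.07). P4hb, the beta subunit of prolyl 4-hydroxylase and a disulphide isomerase, read 12.13, 12.09 and 12.05 against 12.20, 12.19 and 12.23. Its groups were separate, with a difference of 0.12 (SE 0.05, unadjusted p = 0.0616). The catalytic subunits P4ha1, P4ha2 and P4ha3 differed by 0.06, -0.09 and 0.07. P4ha2 was the gene with all congenic arrays below all Dahl S arrays, though its dimmer probe set gave 0.16.

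Serpinh1 encodes Hsp47, the chaperone of the procollagen helix. It differed by 0.09 (SE 0.06, 95% interval -0.04 to 0.23), with groups that came close without overlapping. The prolyl isomerase gene Fkbp10 differed by 0.09 (SE 0.06). Crtap, a partner of prolyl 3-hydroxylase, differed by -0.06 (SE 0.09) on a dim probe set with a mean of 5.06.

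Trimming of propeptides was represented by 2 measured genes. Pcolce, whose product enhances removal of the C-propeptide, read 9.56, 9.59 and 9.66 in Dahl S against 9.69, 9.86 and 9.85 in congenic hearts. All congenic arrays lay above all Dahl S arrays, and congenic array 1 was close to Dahl S array 3. The difference was 0.19 (SE 0.07, unadjusted p = 0.0214, limma adjusted p = 0.736), and it was 0.19 both within the 4 low-control arrays and between the high-control pair. Bmp1, the C-proteinase itself, read 9.15, 9.33 and 9.25 against 9.44, 9.38 and 9.35. Its groups were separate too, with a difference of 0.14 (SE 0.07, unadjusted p = 0.0589) and 0.15 on its other probe set.

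Lysyl oxidases start the covalent cross-links of collagen and elastin. Loxl1, known for its part in elastic fibre upkeep, read 10.58, 10.60 and 10.65 in Dahl S against 10.77, 10.89 and 10.83 in congenic hearts. Both groups were tight and did not overlap. The means were 10.61 ± 0.04 and 10.83 ± 0.06 (SD, n = 3 each), a difference of 0.22 (SE 0.06, 1.16-fold, unadjusted p = 0.00617, limma adjusted p = 0.729). Loxl2 read 8.16, 7.69 and 7.61 against 7.87, 8.07 and 8.25. Dahl S array 1 lay above congenic arrays 1 and 2, and the difference of 0.24 had an SE of 0.16. With Dahl S array 1 left out it was 0.41 and with array 3 of that strain left out 0.14. It was 0.14 within the 4 low-control arrays against 0.46 between the high-control pair. Lox differed by 0.17 (SE 0.13) on its brighter probe set and by 0.37 (SE 0.12, unadjusted p = 0.0162) on the dimmer one. On the brighter one it was 0.27 within the 4 low-control arrays and -0.01 between the high-control pair, and with Dahl S array 2 or 3 left out it was 0.081 or 0.32.

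The promoter window of Loxl1, shown because this gene had the smallest unadjusted p outside the collagen chains, lies at chr8:67612175-67612474 on the minus strand of GRCr8. Capitals mark a CAGA box (CAGACA), a sequence known from promoters that respond to TGF-beta through Smad proteins.
Loxl1: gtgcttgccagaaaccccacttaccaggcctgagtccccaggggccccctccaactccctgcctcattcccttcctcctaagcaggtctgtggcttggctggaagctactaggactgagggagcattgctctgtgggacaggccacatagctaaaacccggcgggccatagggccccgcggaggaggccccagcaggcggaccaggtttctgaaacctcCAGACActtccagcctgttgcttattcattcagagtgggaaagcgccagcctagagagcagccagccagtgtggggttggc
On either strand this sequence occurred in 6 of the 30 windows of measured collagen and fibre genes (20.0%) and in 21.1% of all windows, and none of these letters shows a binding site.

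Elastic fibre genes held the largest single difference of the set. Eln, which encodes tropoelastin, read 11.43, 11.32 and 11.76 on the Dahl S arrays against 11.79, 11.93 and 11.99 on the congenic arrays. Dahl S array 3 came close to congenic array 1, and the groups did not overlap. The means were 11.50 ± 0.23 and 11.90 ± 0.10 (SD, n = 3 each), a difference of 0.40 (SE 0.12, 1.32-fold, unadjusted p = 0.00970, limma adjusted p = 0.731). It was 0.52 within the 4 low-control arrays and 0.17 between the high-control pair, and the dimmer probe set gave 0.23. Mfap4, a microfibril-associated protein that binds elastin and collagen, read 11.71, 11.83 and 11.93 against 11.97, 12.11 and 12.01. The groups were separate, with a difference of 0.21 (SE 0.07, limma adjusted p = 0.736).

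The other fibre proteins were mixed. Fbn1, the fibrillin that forms microfibrils, differed by 0.16 (SE 0.10) and by 0.27 on a second, nearly as bright probe set (unadjusted p = 0.0231). On the first it was 0.077 without Dahl S array 1 and 0.096 without congenic array 2. Fbln1, a fibulin of basement membranes and elastic fibres, differed by 0.20 (SE 0.09, unadjusted p = 0.0508), Efemp2, the fibulin that brings lysyl oxidase to elastin, by 0.14 (SE 0.07, with 0.094 within the low-control arrays and 0.23 between the high-control pair), Fbln2 by 0.10 (SE 0.06) and Fbln5 by 0.08 (SE 0.09). Fmod, a proteoglycan that binds collagen fibrils, read 7.43, 7.52 and 8.11 against 7.82, 8.12 and 8.06. Dahl S array 3 lay within the congenic range, near its top, and the difference was 0.32 (SE 0.17), with 0.47 within the 4 low-control arrays and 0.01 between the high-control pair. Fn1, fibronectin, read 10.85, 10.87 and 11.11 against 10.88, 11.08 and 10.88, a difference of 0.00 (95% interval -0.21 to 0.22). Mfap5 also differed by 0.00 (95% interval -0.19 to 0.19). For both genes the groups overlapped.

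**Figure D3:**
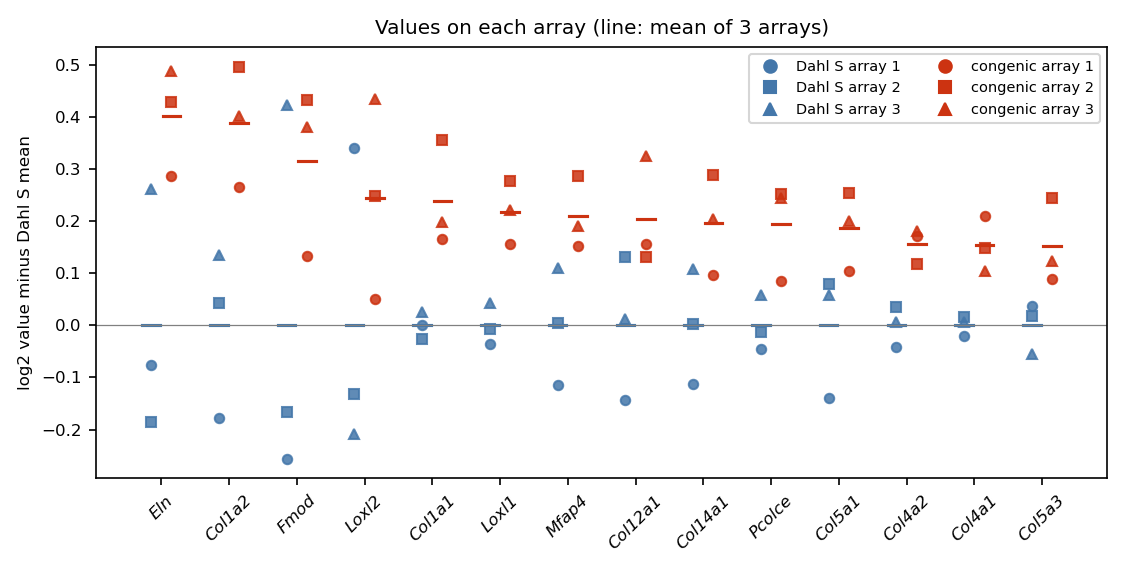
Log2 values relative to the gene's Dahl S mean (vertical axis) are shown on each of the 6 arrays for the 14 genes with an unadjusted p under 0.05 or a difference of at least 0.2, ordered by difference, with lines for the mean of 3 arrays. Congenic arrays lie above all Dahl S arrays in 10 of the 14, and the groups overlap for Fmod, Loxl2, Col12a1 and Col14a1. The 14 were chosen by these same values, so the separation is partly set by the choice. Over all genes it held for 5.89%.

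Other genes of collagen and fibre biology were listed by role, 106 genes of which 87 were measured. At an unadjusted p under 0.05 there were 3 higher genes (3.45% of the 87, near the share among all genes) and 1 lower gene, and the median of the 87 was 0.04. The higher genes were Smad6, an inhibitory Smad of BMP signalling (0.18, SE 0.07), Ltbp4, a TGF-beta binding protein of elastic fibres (0.13, SE 0.05), and Col4a4, a dim type IV chain of specialised basement membranes (0.15, SE 0.06). The lower one was Col17a1, an epithelial transmembrane collagen with a dim probe set (-0.16, SE 0.06). All 4 had a limma adjusted p of 0.736 or 0.744. Beside them, the transglutaminase gene Tgm2 differed by 0.12 and the prolyl 3-hydroxylase gene P3h1 by 0.14. Tmem38b, a potassium channel of the endoplasmic reticulum, differed by -0.11, and Mep1b and Loxl3 by 0.10 and 0.02. In collagen breakdown, the proline dehydrogenase gene Prodh differed by -0.10 and the collagenolytic cathepsin gene Ctsk by 0.05. Of 16 measured TGF-beta signalling genes 1 had an unadjusted p under 0.05 and the median was 0.04, with the ligand gene Tgfb3 at 0.08.

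The 43 genes lie on 17 chromosomes of the GRCr8 annotation. Chromosome 10, the chromosome of the Lewis segment, holds 5 of them, and their places can be given in gene order from Rffl, a candidate gene studied with this congenic strain. Col1a1 is 102 measured genes away, Fkbp10 211, Mfap4 288, P4ha2 371 and P4hb 494, and whether any lies in the segment is not known here. Their differences were 0.24, 0.09, 0.21, -0.09 and 0.12. Col1a2, whose product joins that of Col1a1 in type I collagen, is on chromosome 4. Neighbouring members were Col4a1 and Col4a2 on chromosome 16, Col6a1 and Col6a2 on chromosome 20 (0.05 and 0.16), and Col3a1 and Col5a2 on chromosome 9 (0.16 and 0.12).

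The genes varied together from array to array. Dahl S array 1 was the lowest of the 6 arrays for 29 of the 43 genes (67.4%), and for 23.5% of all genes. Congenic array 2 was the highest for 22 of the 43 (51.2%), and for 15.6% of all genes. After subtraction of the gene's own mean, the median of the 43 was -0.13, -0.06 and -0.02 on Dahl S arrays 1, 2 and 3 and -0.01, 0.11 and 0.08 on congenic arrays 1, 2 and 3. The groups did not overlap, but Dahl S array 3 and congenic array 1 were nearly equal. Within the 4 low-control arrays 37 of 43 differences were above 0 with a median of 0.14, and between the high-control pair 35 of 43 were, also with a median of 0.14. Over all genes the medians of these 2 comparisons were 0.00 and -0.02. Correlations between the genes' deviations from their strain means had a median of 0.46 over 903 pairs and 6 arrays, and the points share the arrays and their normalization. No such value was computed for other genes, so 0.46 cannot be called particular to the set.

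Markers of matrix-producing and other cells moved with the set to differing extents. In whole-heart RNA, fewer cells of a type and less RNA per cell cannot be told apart. Of 13 fibroblast markers, 12 had a difference above 0 and 1, Pi16, an unadjusted p under 0.05. Over all genes 46.7% were above 0 and 3.47% were higher at that p. Their median difference was 0.05 and they ran from -0.13 (Ly6c) to 0.26 (Thy1), with Pdgfra at 0.02, Tcf21 at 0.05, Lum and Dpt at 0.14, Cd248 at 0.15 and Pi16 at 0.18. Their array medians were -0.08, -0.02 and 0.02 in Dahl S and -0.02, 0.07 and -0.00 in congenic hearts, which overlap, and their summed log2 level ran from 14.96 to 15.07 and from 15.03 to 15.11. The median of the 43 genes minus that of the fibroblast markers was -0.04, -0.04 and -0.04 on the Dahl S arrays and 0.01, 0.04 and 0.08 on the congenic arrays. Of 7 myofibroblast markers 5 were above 0 with a median of 0.10, from -0.04 (Runx1) to 0.26 (Postn), and 0 of 7 had an unadjusted p under 0.05. Their summed log2 level ran from 11.21 to 11.68 in Dahl S and from 11.45 to 11.72 in congenic hearts.

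By limma's adjusted p, 0 markers of any list were called. Over all genes, 46.7% had a difference above 0 and 3.47% were higher at an unadjusted p under 0.05. The share above 0 fell with brightness, from 62.9% in the dimmest band to 36.3% in the brightest. Below the median probe set lay 3 of 7 mesothelial and epicardial markers and 3 of 4 nerve and Schwann cell markers. Of 10 macrophage markers 9 were above 0 with a median of 0.19, and 4 had an unadjusted p under 0.05. Their summed level ran from 12.10 to 12.47 in Dahl S and from 12.38 to 12.44 in congenic hearts. All 8 proliferation markers were above 0 with a median of 0.32, 6 had an unadjusted p under 0.05, and their summed level ran from 10.08 to 10.36 and from 10.49 to 10.68. All 7 mesothelial and epicardial markers were above 0 with a median of 0.13, 2 had an unadjusted p under 0.05, and they summed from 9.52 to 9.68 and from 9.77 to 9.86. Of 9 smooth muscle and pericyte markers 7 were above 0 with a median of 0.05 and of 9 endothelial markers 6 with a median of 0.03. All 4 measured nerve and Schwann cell markers were above 0 with a median of 0.08, and 2 of them, Th and Dbh, had an unadjusted p under 0.05. All 9 cardiomyocyte markers were below 0, with a median of -0.02, and summed from 17.58 to 17.61 in Dahl S and from 17.56 to 17.58 in congenic hearts. These markers all lie in the brightest band, where the median of all genes was also -0.02. The part of these cell types in the collagen and fibre differences was not tested.

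**Figure D4:**
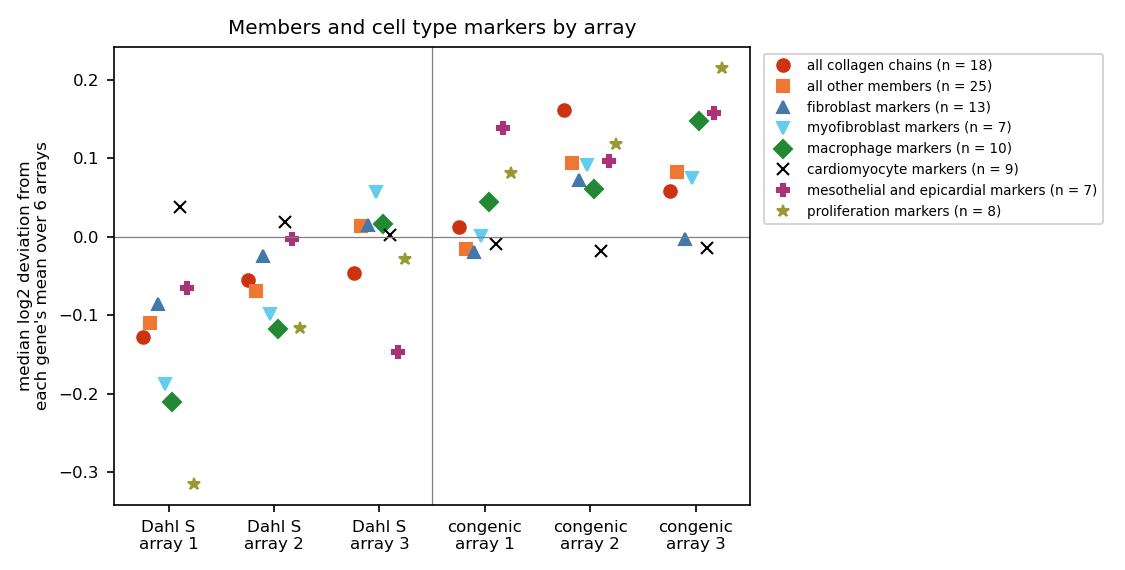
For each array (horizontal axis) the median log2 deviation from each gene's mean over 6 arrays (vertical axis) is shown for the 18 collagen chains, the 25 other collagen and fibre genes and 6 lists of cell type markers. Collagen chains run from -0.13 to -0.05 on the Dahl S arrays and from 0.01 to 0.16 on the congenic arrays. Separation of the strains is not particular to them. The medians of macrophage, mesothelial and epicardial, and proliferation markers are also all higher on the congenic arrays. Those of cardiomyocyte markers are all lower. The 25 other genes (Dahl S array 3 at 0.01, congenic array 1 at -0.02) and the fibroblast and myofibroblast markers overlap between strains.

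How many of the 43 genes reached an unadjusted p under 0.05 varied with the setting, and all of these were on the higher side. It was 20 with quantile normalization, where 3.69% of all genes were higher, and 21 with a variance that follows brightness (3.62% of all genes). It was 19 of 40 with dim probe sets left out (3.26% of all genes) and 9 with ordinary variances (2.98%). In 4 genes, Col1a1, Col1a2, Loxl1 and Eln, it held in each of the 6 fits with 1 array left out. For the other 8 it held in 1 to 3 of those fits. For Eln the difference ran from 0.31 to 0.53 in these fits, for Col1a2 from 0.30 to 0.46, for Col1a1 from 0.18 to 0.28 and for Loxl1 from 0.19 to 0.25. These 4 had the smallest unadjusted p of the 43 genes on all arrays, and each such fit reuses most of the same arrays. That they held is therefore no separate support. The share of all genes that held in each of these fits was not counted.

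**Figure D5:**
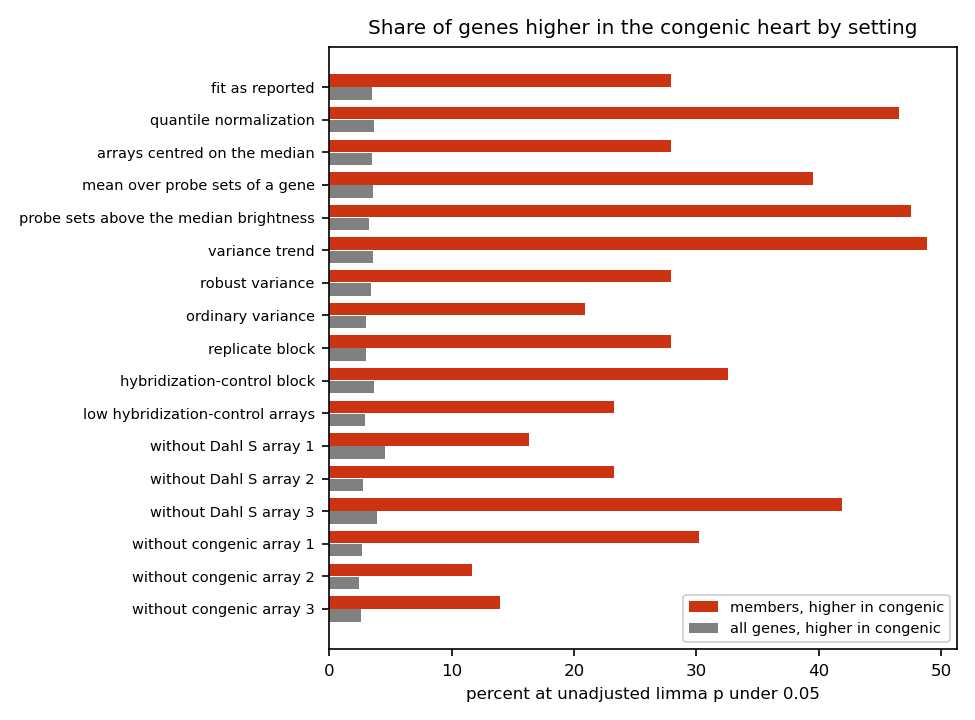
Bars give the percentage of the collagen and fibre genes and of all genes (horizontal axis) that were higher in the congenic heart at an unadjusted limma p under 0.05, for the fit as reported and 16 alternatives. The share among the 43 genes is lowest without congenic array 2 (11.6% against 2.41% of all genes) and highest with the variance trend (48.8% against 3.62%).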

How the data were processed

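Values deposited by the authors are log2 expression per probe set, made with RMA according to the submitters' processing notes. No RMA version is given in the sources used here. They were used as they stand. Of the probe sets, 57 Affymetrix controls were left out, which left 31042 to test. Genes were named from the platform annotation, updated through the RefSeq table of GRCr8. Promoter windows are RefSeq's.

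The comparison of strains used limma (version 3.58.1; R version 4.3.3) with strain as the only term, two-sided, with Benjamini-Hochberg adjustment over all probe sets. The test was checked on simulated data. The genes, lists and alternatives were chosen with earlier results of these data known. Genes with an unadjusted p under 0.05 or a difference of at least 0.2 were to be given by array, and 2 genes per pathway list named. Members given by array beyond that rule, Col2a1, Col10a1 and Col9a1 were chosen after their values were seen. Arrays were not treated as pairs by replicate number. Deviations from the strain means correlated at -0.07, -0.06 and -0.18 between same-numbered arrays. These values cannot show whether cage or handling paired the pools. The number of arrays limits the precision. Plots used matplotlib 3.10.9.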

Additional observations from a re-analysis of the deposited data

How the results depend on the processing

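Across 17 alternatives, 16 of them with a test, 31 of the 43 genes kept the direction of their difference. All 12 with an unadjusted p under 0.05 were among them. Alternatives that changed only the variance, the blocks or the probe sets tested left each estimate as it was, so no direction could change there. The 12 were also picked by their p on these same arrays, and the share of all genes that kept direction was not counted. In each test limma called 0 of 43 (lowest adjusted p 0.265, with the variance trend). The median difference of the 43 ran from 0.11 to 0.16 with 1 array left out. The count of higher genes at an unadjusted p under 0.05 was 12 (3.47% of all genes) and became 20 with quantile normalization (3.69%). It became 19 with dim probe sets left out (3.26%) and 21 with the variance trend (3.62%). With 1 array left out it ran from 5 to 18, while 2.41% to 4.58% of all genes were higher. With the replicate number as a block it was again 12 (3.04% of all genes). Among the 87 other pathway genes, 3 higher became 5 with the hybridization-control block (3.67% of all genes) and 0 within the low-control arrays (2.91%). With 1 array left out that count ran from 1 to 3. The 1 lower became 4 with the mean over probe sets (3.35% of all genes lower) and 4 with ordinary variances (5.09%). It became 0 with the variance trend (5.11%) or the replicate block (2.38%). With 1 array left out it ran from 0 to 2, while 2.17% to 5.01% of all genes were lower. The causes were not tested.

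In 12 genes the difference reversed under some alternative; the one farthest from 0 as reported was Lox, at 0.17. Within the low-control arrays Col16a1 was -0.018, Col8a1 -0.052 and Mfap5 -0.0079. Between the high-control arrays Plod3 was -0.0093, P4ha1 -0.0083, P4ha3 -0.20, Crtap 0.11, Lox -0.013, Fn1 -0.026 and Fbln5 -0.034. With the mean over probe sets P4ha2 was 0.034 and Serpinh1 -0.014. With 1 array left out Col8a1 ran from -0.085 to 0.13, Plod3 from -0.055 to 0.037, P4ha3 from -0.051 to 0.21, Crtap from -0.13 to 0.038, Fn1 from -0.064 to 0.088 and Mfap5 from -0.047 to 0.072. Dim probe sets, such as those of Col11a1, P4ha3 and Crtap, limit what can be read from them.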

Other observations

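Some collagens known from cartilage were high on 1 array of each strain. Col2a1, the chain of type II collagen in cartilage, read 4.65, 4.71 and 6.61 on Dahl S arrays 1, 2 and 3 and 4.48, 7.59 and 4.66 on congenic arrays 1, 2 and 3. Col10a1, the collagen of hypertrophic cartilage, read 4.81, 4.87 and 7.04 against 4.67, 7.05 and 4.87. Both were high on Dahl S array 3 and congenic array 2, the pair with high spiked controls, and near the low end of the scale on the other 4 arrays. Col9a1, a cartilage fibril-associated chain, read 5.04 and 5.71 on that pair and from 4.34 to 4.62 elsewhere, and Cnmd, chondromodulin, 5.07 and 5.32 against 4.45 to 4.71. The proteoglycan gene Acan read 5.61 and 5.53 on the pair and from 5.29 to 5.50 elsewhere. These genes were picked after their values had been seen, and where the signal comes from was not tested.

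Adipocyte markers differed between arrays too, with medians of -0.72, 0.13 and 0.74 on the Dahl S arrays and -0.28, 0.56 and -0.37 on the congenic arrays, so that the same pair was highest.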
